A study of Mus musculus with 25 samples.

Results

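Untreated somatic cell nuclear transfer (SCNT) embryos were compared with in vitro fertilized (IVF) embryos at the late two-cell stage, using the 8 of the 25 RNA-seq libraries of the study that received no histone demethylase mRNA, G9a inhibitor or trichostatin A. They comprised 4 IVF libraries and 4 SCNT controls, and the SCNT controls were of 2 types that differed in the drug used to block actin polymerization. For 2 of them (SCNT, cont) the embryos were activated and then cultured in 5 µg/mL cytochalasin B, and for the other 2 (SCNT, LatA-treated control) latrunculin A took its place. Per the methods of the study, exposure to latrunculin A was also longer than that to cytochalasin B. Drug and exposure time therefore cannot be told apart between the types. All oocytes for SCNT were enucleated in 7.5 µg/mL cytochalasin B. Recipient oocytes came from superovulated BDF1 females (C57BL/6N × DBA2) and received the nucleus of a cumulus cell, a somatic cell that surrounds the oocyte, from wild-type BDF1 females. IVF embryos were made from oocytes of superovulated C57BL/6N females, 4 to 20 weeks old, and sperm of adult DBA2 males. The SCNT and IVF groups therefore also differed in oocyte strain, and the effects of strain and of nuclear transfer cannot be told apart in any comparison with IVF embryos. Embryos were collected 28 to 29 h after insemination or activation, 5 to 10 of them were pooled for each library, and polyadenylated RNA was reverse transcribed and amplified before sequencing. Features were the gene rows of the deposited count table on autosomes, of which the 25794 with a mean of at least 1 read over the 25 libraries were tested.

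In the mouse, the embryo first runs on RNA and protein that the oocyte stored. Most of this maternal RNA is degraded around the first cleavage, while a burst of transcription at the two-cell stage, called zygotic genome activation (ZGA), switches on genes such as the Zscan4 and Obox clusters. After SCNT the genome to be activated is that of a differentiated cell, and incomplete activation of embryonic genes and continued expression of somatic genes are both known in such embryos. Histone H3 lysine 9 (H3K9) methylation carried over from the donor nucleus is known to hinder activation in SCNT embryos. The comparison asks which genes and gene classes lay below or above the IVF level in SCNT embryos of both control types.

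Total counts on genes ranged from 6662727 to 16791202 in the IVF libraries and from 9136103 to 16604899 in the SCNT controls. Levels are given as CPM, reads of a gene scaled to the size of the library with TMM factors. Over all genes tested, levels summed to 949236 to 973329 CPM in IVF and 763135 to 839524 CPM in SCNT libraries. The SCNT mean of this sum was 83.1% of the IVF mean, the background for summed levels of gene lists. No batch or date was given for the libraries. Late two-cell markers were detected in both groups, in keeping with the labels, with the summed level of the 6 late two-cell markers at 886 to 1102 CPM in IVF libraries and 279 to 672 CPM in SCNT libraries. The 12 cumulus and granulosa markers summed to 40.2 to 52.7 CPM in IVF libraries and 36.7 to 48.4 CPM in SCNT libraries, and most of that sum was Amhr2. The 6 sperm markers summed to at most 3.91 CPM, the 5 fibroblast markers to at most 1.39 CPM and the 3 blood markers to 5.70 to 8.06 CPM in IVF libraries and 10.1 to 19.5 CPM in SCNT libraries, nearly all of it Hba-a1, while the leukocyte gene Ptprc had 2 reads in all 8 libraries together. The part of these markers in the results was not tested.

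Of the 25794 genes, 2376 (9.21%) were lower and 2485 (9.63%) were higher in the pooled SCNT controls than in IVF embryos by edgeR's quasi-likelihood test, with an adjusted p under 0.05 and a fold change over 2. Genes called against IVF embryos in each control type separately and in the same direction numbered 1097 lower (4.25%) and 1489 higher (5.77%). Both types were compared with the same 4 IVF libraries. All 4 SCNT libraries lay below all 4 IVF libraries at 3689 genes (14.3%) and above them at 3309 genes (12.8%), and this held for 1091 of the 1097 and 1386 of the 1489. The 2 directions differed in abundance. Genes lower in both types had a median of 30.5 CPM in IVF embryos and 294 of them exceeded 100 CPM there, whereas genes higher in both types had a median of 9.70 CPM in SCNT embryos and 55 exceeded 100 CPM. Among the 500 genes with the highest mean TPM, a level corrected for gene length, 82 were called lower and 18 higher in the pooled comparison.

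The deficit was partial for most genes. The SCNT mean of the 1097 lower genes was 28.5% of the IVF mean at the median, with quartiles of 14.8% and 38.6%. It was below 10% for 217 genes, and 56 genes had no read in any of the 4 SCNT libraries. In the opposite direction, the IVF mean of the 1489 higher genes was 23.9% of the SCNT mean at the median, it was below 10% for 330 genes, and 72 genes had no read in any IVF library. Protein-coding genes made up 821 of the lower and 1163 of the higher genes. The lower genes also held 78 processed and 40 unprocessed pseudogenes, against 42 and 9 among the higher genes. Long intergenic noncoding RNA genes numbered 79 among the lower and 80 among the higher genes, and antisense genes 34 and 50.

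**Figure D1:**
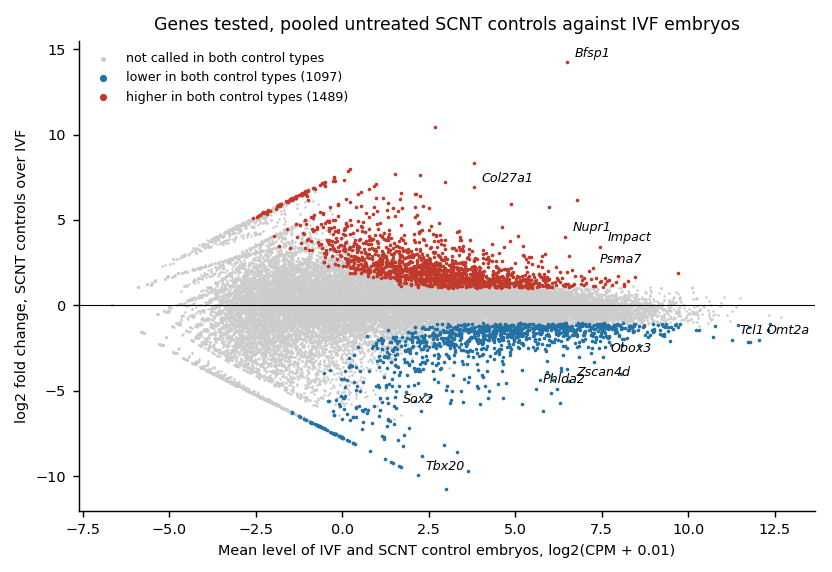
Each point is 1 of the 25794 genes tested, with the mean of the IVF and SCNT control levels on the x axis, log2(CPM + 0.01), and the fitted log2 fold change of the pooled SCNT controls over IVF embryos on the y axis. The 1097 genes lower in both control types are blue and the 1489 higher ones red; the blue points reach further to the right, to abundant genes such as Omt2a and Tcl1, and for genes without reads in a group, such as Tbx20 and Bfsp1, the fitted value depends on the prior count of the fit and is no estimate of a fold.

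The Zscan4 genes, which encode zinc finger proteins of the late two-cell embryo that act on telomeres and genome stability, had the lowest median of the 60 gene lists examined. Each of the 6 genes tested was lower in the pooled SCNT controls, 5 of them in both types, and their median log2 fold change was −4.67 against 0.00 for all genes tested. Zscan4d was read at 182, 157, 203 and 171 CPM in the 4 IVF libraries, at 7.17 and 9.17 CPM in the cytochalasin B controls and at 10.9 and 5.12 CPM in the latrunculin A controls. The highest SCNT library thus lay far below the lowest IVF library, and the log2 fold change was −4.44 ± 0.34 (± standard error) with an adjusted p of 2.34e-10. In pooled embryos, fewer cells that express a gene and less RNA per cell cannot be told apart. Zscan4a measured 151, 104, 173 and 139 CPM in IVF embryos and 6.30, 5.34, 3.53 and 4.38 CPM in the SCNT controls (log2 fold change −4.89 ± 0.26, adjusted p = 6.76e-13). For Zscan4f the means were 49.1 ± 15.5 CPM (SD, n = 4) in IVF and 1.14 ± 1.07 CPM (n = 4) in SCNT embryos. The members are near-identical copies that share reads, and only reads with 1 genomic position were counted, so the split of reads among them is uncertain.

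Genes of the Obox family, oocyte-specific homeobox factors that take part in ZGA, were also lower, with a smaller median change. Of 7 tested, 6 were lower in the pooled controls and 5 in both types, with a median log2 fold change of −1.26. Obox3 measured 351, 307, 363 and 300.1 CPM in the IVF libraries and 47.3, 33.7, 47.7 and 30.4 CPM in the SCNT controls, or 12.04% of the IVF mean (log2 fold change −3.05 ± 0.21, adjusted p = 2.10e-11). Obox8 measured 483, 415, 505 and 418 CPM in IVF and 95.2, 122, 85.3 and 65.7 CPM in SCNT embryos (log2 fold change −2.33 ± 0.20). The abundant Obox6 retained more of its level, at 1264, 1089, 1255 and 1057 CPM in IVF and 402, 622, 577 and 347 CPM in SCNT embryos (41.8% of IVF), and Obox5 stood at 37.3%. No IVF and SCNT library overlapped for any of these 4 genes.

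Other two-cell genes were lower in part. Of 28 two-cell markers tested beside Zscan4 and Obox, 13 were lower in the pooled comparison, 8 in both types and 0 higher, with a median log2 fold change of −0.96. The summed level of the list overlapped between IVF libraries (2815 to 3826 CPM) and SCNT libraries (1616 to 3157 CPM). Usp17le, a member of the Usp17 family of deubiquitinases, fell from 7.93 to 0.392 CPM (log2 fold change −4.67 ± 0.63), and Usp17la, of the same family, from 14.7 to 2.00 CPM. The more abundant Usp17lc of this family did not fall on average, with means of 73.0 CPM in IVF and 78.6 CPM in SCNT embryos. Its SCNT libraries ranged from 33.7 to 108 CPM. Tmem92, a membrane protein gene used as a marker of two-cell-like cells, fell from 36.8 to 9.89 CPM. By contrast, the zinc finger gene Zfp352 was read at 323, 280.0, 337 and 271 CPM in IVF and 394, 500.1, 277 and 194 CPM in SCNT embryos, both cytochalasin B controls lay above the IVF libraries while 1 latrunculin A control lay within their range and the other below it, and the log2 fold change of the pooled controls was 0.10 ± 0.18 (adjusted p = 0.72). Of the 15 Prame and Oog genes, leucine-rich repeat genes of oocyte and early embryo, 4 were lower (26.7%) and 1 was higher (6.67%). Oog3 and Oog1 went in opposite directions, Oog3 from 4874 to 2059 CPM and Oog1 from 132 to 348 CPM, and both were called in both control types. Of the 879 reprogramming-resistant genes listed by the study, 775 were lower here and 532 in both types, which is no independent evidence because the study chose them on these libraries.

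**Figure D2:**
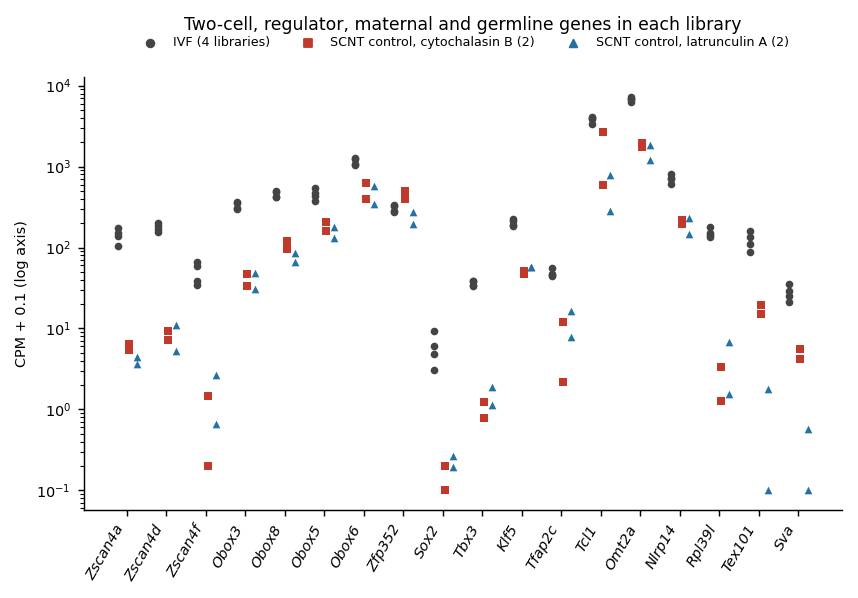
Each point is the level of a gene in 1 library, as CPM + 0.1 on a log axis; dark circles are IVF libraries, red squares cytochalasin B controls and blue triangles latrunculin A controls. Zscan4, Obox, maternal and germline genes separate IVF from all SCNT libraries, Zfp352 has SCNT libraries on both sides of IVF, and Sva is lowest in the latrunculin A controls.

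Regulators of totipotency and of the first cell lineages were divided. Of 33 tested, 8 were lower (24.2%, 6 genes in both types), 2 were higher (6.06%) and the rest were not called, beside 9.21% and 9.63% of all genes tested. Sox2, a factor of the inner cell mass, measured 2.95, 4.79, 9.08 and 6.00 CPM in IVF embryos and 0.0968, 0, 0.163 and 0.0931 CPM in the SCNT controls. Tbx3, a T-box factor that maintains pluripotency, fell from 36.4 to 1.15 CPM (log2 fold change −5.02 ± 0.55, adjusted p = 9.85e-08). Klf5, needed for the first lineages, was read at 187, 227, 213 and 187 CPM in IVF and 47.1, 50.5, 57.5 and 57.5 CPM in SCNT embryos, and Tfap2c, a factor of trophectoderm and germ line, at 45.4, 44.1, 47.6 and 56.5 CPM and 11.9, 2.07, 7.82 and 16.4 CPM. Log2 fold changes were −1.94 ± 0.17 for Klf5 and −2.41 ± 0.31 for Tfap2c. Gata6, a factor of primitive endoderm, rose from 1.04 to 4.44 CPM, and Gata3, a factor of trophectoderm, from 3.66 to 9.03 CPM. Pou5f1 and Nanog were low in all libraries and not called, at 5.95 ± 2.26 and 1.42 ± 0.991 CPM in IVF and 4.56 ± 1.44 and 1.84 ± 0.817 CPM in SCNT embryos. Dppa3, an abundant maternal gene that protects DNA methylation of the oocyte genome, measured 6104 ± 469 CPM in IVF and 4309.9 ± 1516 CPM in SCNT embryos and did not pass the fold threshold (log2 fold change −0.54 ± 0.14, adjusted p = 0.0044).

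RNA of the oocyte was lower rather than higher in SCNT embryos. Of 44 oocyte-stored transcripts tested, 21 were lower, 17 of them in both types, and 0 were higher. Their summed level was 29575 to 33614 CPM in the IVF libraries and 8084 to 18536 CPM in the SCNT libraries, without overlap. Omt2a and Omt2b, genes of oocyte maturation, were the most abundant of those named. Omt2a was read at 6796, 6849.8, 7343 and 6252 CPM in IVF and 1724, 1959.6, 1856 and 1220.0 CPM in SCNT embryos (log2 fold change −2.02 ± 0.15, adjusted p = 1.49e-10), and Omt2b fell from 5648 to 1346 CPM. Tcl1, a co-activator of the kinase Akt, was read at 3357, 3829, 4057 and 3987 CPM and 593, 2678, 796 and 279 CPM, and its SCNT libraries spanned a wide range while all of them stayed below the IVF libraries. Btg4, an adaptor that brings deadenylase to maternal RNA, fell from 1854 to 674 CPM, and Zar1l, related to the zygote arrest gene Zar1, from 37.4 to 4.39 CPM. No value here shows whether less maternal RNA was stored, more was degraded or less was transcribed anew.

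The subcortical maternal complex, an assembly of maternal proteins beneath the surface of the egg, and the related Nlrp genes moved in the same direction. Of 20 genes tested, 10 were lower, 8 of them in both types, and 0 were higher, with a median log2 fold change of −0.99. Without latrunculin A control replicate 2, 6 were lower. Nlrp14, a NOD-like receptor gene needed in oocytes for early cleavage, was read at 608, 693, 812 and 726 CPM in IVF and 197, 219.8, 233 and 148 CPM in SCNT embryos. Nlrp4f and Nlrp9a of the same family fell from 323 to 87.4 CPM and from 226 to 72.3 CPM. Log2 fold changes were −1.83 ± 0.17 for Nlrp14, −1.89 ± 0.17 for Nlrp4f and −1.64 ± 0.24 for Nlrp9a.

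Germline and meiosis genes were also lower in large number. Of 64 tested, 31 were lower (22 in both types) and 4 were higher, with a median log2 fold change of −1.12. Rpl39l, a germ cell paralog of ribosomal protein L39, was read at 137, 151, 181 and 141 CPM in IVF and 1.16, 3.19, 1.47 and 6.70 CPM in SCNT embryos (log2 fold change −5.69 ± 0.39, adjusted p = 2.63e-11). Tuba3b, an alpha-tubulin of testis, measured 69.0, 52.2, 79.6 and 87.6 CPM and 0.387, 1.59, 1.68 and 1.77 CPM. For Tex101, a surface glycoprotein of germ cells, the SCNT values of 15.1, 19.5, 0 and 1.68 CPM varied more, against 158, 87.0, 109 and 133 CPM in IVF embryos. Cox7b2, a cytochrome oxidase paralog of germ cells, was low, at 2.33, 1.68, 1.10 and 1.74 CPM in IVF and 0, 0.478, 0 and 0 CPM in SCNT embryos, and was called in the pooled comparison but not in both types. Terb2, a telomere attachment protein of meiosis, and Cstf2t, a cleavage factor of germ cells, fell to 36.9% and 42.2% of the IVF mean. Rec8, the meiotic cohesin subunit, rose from 0.469 to 9.04 CPM, and Majin, a meiotic telomere protein, from 0.908 to 6.54 CPM.

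The 15 protein-coding genes with the most negative log2 fold change among those called in both types were at low levels in IVF embryos, between 1.89 and 19.9 CPM, and 11 of the 15 had no read in any SCNT control. Tbx20, a T-box factor of the heart, was read at 8.84, 9.57, 7.45 and 10.4 CPM in the IVF libraries and had no reads in the 4 SCNT libraries, which makes it at least 37.3-fold lower when each of these libraries is set to 3 reads. By the same bound, the homeobox gene Irx2 was at least 26.6-fold lower and the liver transporter gene Slco1b2 at least 22.6-fold. Sox11, a neural SRY-box factor, was read at 25.9, 9.70, 32.9 and 10.9 CPM in IVF and 0.581, 0, 0 and 0 CPM in SCNT embryos. Krt28 and Krtap4-13, genes of hair keratin structures, measured 9.82 ± 3.08 and 6.69 ± 3.06 CPM in IVF embryos and 0.0199 and 0.0242 CPM in SCNT embryos, and the nicotinic receptor gene Chrna5 4.61 ± 1.76 and 0.0242 CPM. Others were Cetn1 (a centrin), Rbmxl2 and Rbm46 (germline RNA-binding proteins), Kcns3 (a potassium channel subunit), Hamp (the iron hormone hepcidin) and Fgf5 (a growth factor of the epiblast), which all had 0 reads in the SCNT controls and between 1.89 and 4.66 CPM in IVF embryos. These counts allow up to 3 reads per library by counting error. In the 17 treated SCNT libraries of the series, whose oocytes were also from BDF1 females, Tbx20 lay between 0 and 0.186 CPM and Sox11 between 0 and 2.91 CPM.

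At the 2-fold threshold, lists of ribosome assembly, transcription, nuclear transport and mitosis had shares of lower genes near that of all genes. At an unadjusted p under 0.05 by edgeR's test, without a fold threshold, more members were lower than higher. Ribosome biogenesis had 59 lower and 14 higher of 118, and RNA polymerase II 27 and 10 of 70. Nuclear transport had 20 and 9 of 49, mitosis 31 and 5 of 72, and all genes tested 5169 and 5038 of 25794. Of 118 ribosome biogenesis genes, 14 were lower and 1 was higher, a share of 11.9% lower that is close to the background of 9.21%, and their median log2 fold change was −0.33. Abt1 and Mphosph10, factors of small subunit assembly, fell from 223 to 67.0 CPM and from 324 to 124 CPM, and Polr1e, a subunit of RNA polymerase I, from 329.7 to 127 CPM. The list of RNA polymerase II, Mediator and basal factors had 9 lower (12.9%) and 2 higher of 70, with the polymerase subunit Polr2c at 476, 358, 431 and 498 CPM in IVF and 137, 207, 239 and 159.9 CPM in SCNT embryos. Among 49 nucleoporin and transport genes 5 were lower (10.2%), including the abundant importin Kpna2 (2038 to 988 CPM), and 0 were higher. Kpna2 was not called in both types and lost its call without IVF replicate 1, cytochalasin B control replicate 1 or latrunculin A control replicate 2 (log2 fold change −0.99, −0.72 and −0.71). Mitosis genes had 6 lower (8.33%) and 1 higher of 72. The lower mitosis genes numbered 11 without cytochalasin B control replicate 2, 15 without latrunculin A control replicate 1 and 3 without latrunculin A control replicate 2. Without cytochalasin B control replicate 1 the lower genes were 9 for ribosome biogenesis and 5 for RNA polymerase II, and without latrunculin A control replicate 2 they were 3 for nuclear transport. Prc1, which bundles the spindle midzone, fell from 959 to 406 CPM, Aurkc, the Aurora kinase of germ cells, from 70.8 to 22.0 CPM, and the checkpoint kinase Bub1 from 233 to 97.0 CPM.

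**Figure D3:**
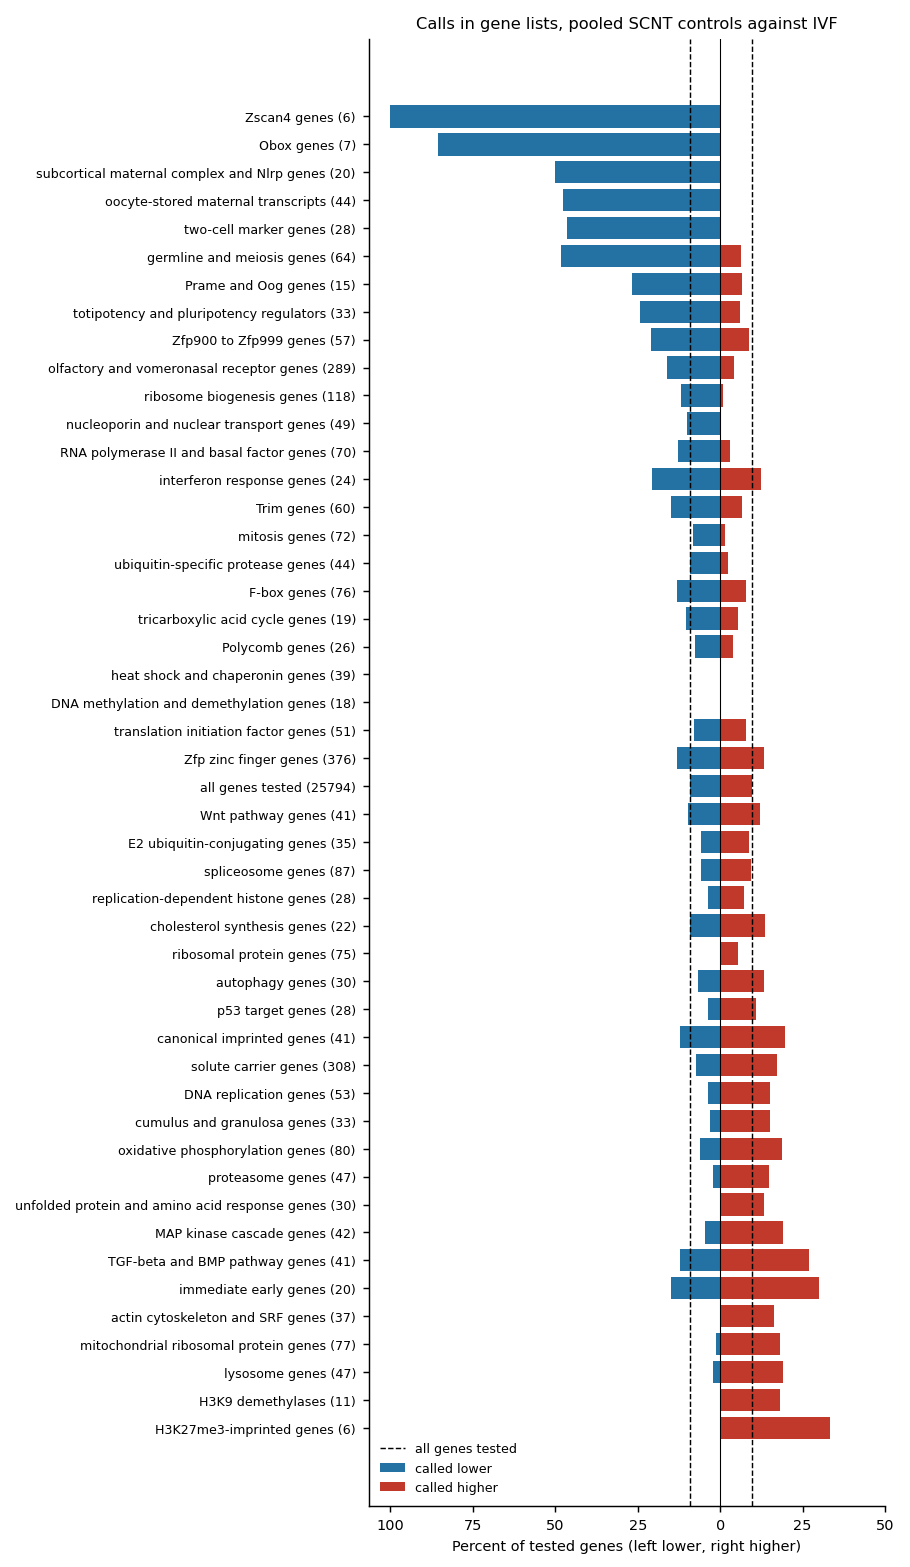
For each gene list, with the number of genes tested in parentheses, bars show the percent called lower (left, blue) and higher (right, red) in the pooled SCNT controls against IVF embryos, and dashed lines show the shares of all genes tested, 9.21% and 9.63%. Zscan4, Obox, maternal, Nlrp, germline and two-cell lists extend furthest to the left, and the H3K27me3-imprinted, immediate early and TGF-beta lists furthest to the right.

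Among the 15 protein-coding genes with the largest positive log2 fold change, most were at or near 0 CPM in IVF embryos. Bfsp1, which encodes the lens filament protein filensin, had 0 reads in the 4 IVF libraries and was read at 257, 157, 158 and 155 CPM in the SCNT controls, at least 690.0-fold higher when each IVF library is set to 3 reads. Its level in the 17 treated SCNT libraries lay between 41.5 and 144 CPM. Ambp, the precursor of alpha-1-microglobulin and bikunin, also had 0 reads in IVF libraries and 16.2, 11.96, 11.5 and 11.5 CPM in the SCNT controls (at least 48.5-fold higher), and the axonal microtubule gene Trim46 and the secreted factor gene Fam3b were at least 8.36-fold and 5.12-fold higher. Col27a1, a fibrillar collagen, was read at 0, 0.435, 0.194 and 0.139 CPM in IVF and 29.1, 27.5, 29.0 and 26.3 CPM in SCNT embryos (log2 fold change 6.91 ± 0.49). Steap3, an iron reductase, measured 0, 0.124, 0.0648 and 0.139 CPM and 13.1, 15.9, 10.9 and 22.5 CPM. Plet1, a surface protein of trophoblast progenitors, had a mean of 9.42 ± 5.84 CPM in SCNT embryos and 0.127 ± 0.133 CPM in IVF embryos, and the cation channel gene Trpm4 8.52 ± 3.41 and 0.112 ± 0.147 CPM. Others were Gsta2 (a glutathione transferase), Itga7 (a laminin receptor), Pxdn (a matrix peroxidase), Fam13a, Adssl1 (a synthase of the purine nucleotide cycle) and Relt (a TNF receptor relative), with 2.85 to 6.45 CPM in SCNT and at most 0.0492 CPM in IVF embryos.

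Oxidative phosphorylation and mitochondrial translation held more higher than lower genes, beside 9.21% lower and 9.63% higher of all genes tested. Of 80 nuclear genes of oxidative phosphorylation, 15 were higher (18.8%, 13 genes in both types) and 5 lower (6.25%), with a median log2 fold change of 0.16. Their summed level overlapped between IVF libraries (4449 to 5287 CPM) and SCNT libraries (4733 to 6161 CPM). Sdhb, the iron-sulfur subunit of complex II, was read at 20.2, 16.2, 13.1 and 16.2 CPM in IVF and 54.0, 86.7, 76.1 and 41.6 CPM in SCNT embryos (log2 fold change 1.98 ± 0.18, adjusted p = 4.74e-09). Atp5k, a subunit of ATP synthase, measured 18.8, 25.8, 30.4 and 23.3 CPM and 136, 136, 106 and 103 CPM, and Ndufs6 of complex I rose from 4.18 to 29.5 CPM. Among 77 mitochondrial ribosomal proteins, 14 were higher (18.2%, 12 genes in both types) and 1 lower (1.3%). Summed levels of this list overlapped as well, at 2958 to 3432 CPM in IVF and 2957 to 3994 CPM in SCNT libraries. Mrps18a was read at 3.57, 3.11, 3.89 and 4.53 CPM in IVF and 66.0, 76.3, 78.5 and 36.9 CPM in SCNT embryos, and Mrps31 rose from 1.18 to 19.9 CPM. Cytoplasmic ribosomal protein genes had a median log2 fold change of 0.26. Of 75, 4 were called higher (5.33%, below the share of all genes), among them Rpl14 (108 to 294 CPM), and 0 lower. At an unadjusted p under 0.05 by edgeR's test, without a fold threshold, 35 were higher and 5 lower. Their summed level was 12316.5 to 13281 CPM in IVF and 13631 to 16991 CPM in SCNT libraries. Without cytochalasin B control replicate 1 or latrunculin A control replicate 2, 2 cytoplasmic ribosomal protein genes were called higher, and without the latter 3 oxidative phosphorylation genes were lower. Of 19 genes of the tricarboxylic acid cycle, 2 were lower (10.5%) and 1 higher (5.26%), with a median log2 fold change of −0.32. Their summed level was 1272 to 1416 CPM in IVF and 811 to 1268 CPM in SCNT libraries. The SCNT mean of this sum was 78.5% of the IVF mean, against 83.1% for all genes tested. Suclg1 was higher (3.26 to 13.6 CPM) and its partner Suclg2 lower (63.5 to 16.6 CPM), the alpha and the GTP-specific beta subunit of succinyl-CoA ligase.

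Lists of protein turnover had calls in both directions, beside 9.21% lower and 9.63% higher of all genes tested. Of 47 lysosome genes, 9 were higher (19.1%), 8 of them in both types, 1 was lower (2.13%) and the median log2 fold change was 0.51. Ctsd, the protease cathepsin D, was read at 8.06, 10.6, 6.61 and 8.92 CPM in IVF and 60.9, 52.5, 73.1 and 80.7 CPM in SCNT embryos (log2 fold change 2.94 ± 0.18, adjusted p = 4.88e-12). Hexa, a hexosaminidase, rose from 3.22 to 21.2 CPM, while Ctsc, the abundant dipeptidyl peptidase cathepsin C, fell from 1773 to 772 CPM. The proteasome list had 7 higher (14.9%), all 7 in both types, and 1 lower (2.13%) of 47. Psma7, a core subunit, was read at 48.4, 49.9, 68.1 and 51.4 CPM and 210.4, 335, 245 and 196 CPM (log2 fold change 2.17 ± 0.20), and the interferon-inducible subunits Psmb8 and Psmb9 rose from 0.409 to 3.00 CPM and from 1.30 to 5.70 CPM. F-box genes, substrate receptors of ubiquitin ligases, had 10 lower (13.2%) and 6 higher (7.89%) of 76, and Trim genes 9 (15%) and 4 (6.67%) of 60. Ubiquitin-specific proteases had 4 lower (9.09%) and 1 higher (2.27%) of 44. For ubiquitin-conjugating enzymes the counts were 2 (5.71%) and 3 (8.57%) of 35, and for autophagy genes 2 (6.67%) and 4 (13.3%) of 30. Whether these shares differ from those of all genes was not tested. Without latrunculin A control replicate 1, 17 F-box genes were lower, 2 Trim genes were higher, and ubiquitin-specific proteases had 2 in each direction, and without cytochalasin B control replicate 1, 3 F-box and 2 autophagy genes were higher. Of 39 heat shock and chaperonin genes, edgeR called 0, with 8 lower and 5 higher at an unadjusted p under 0.05, and DESeq2 called 0 lower and 0 higher.

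Stress-linked lists were called in both directions, beside 9.21% lower and 9.63% higher of all genes tested. Of 30 genes of the unfolded protein and amino acid response, 4 were higher in both types (13.3%) and 0 lower. At an unadjusted p under 0.05 by edgeR's test, 12 were higher and 9 lower. The summed level of the list overlapped between IVF libraries (2832 to 3793 CPM) and SCNT libraries (2780 to 4003 CPM). Nupr1, a small stress-induced nuclear protein, was read at 11.2, 9.39, 9.79 and 9.76 CPM in IVF and 172, 209, 181 and 96.4 CPM in SCNT embryos (log2 fold change 4.03 ± 0.28, adjusted p = 4.25e-11). Asns, asparagine synthetase, measured 6.67, 2.61, 3.24 and 2.58 CPM and 25.0, 31.9, 27.1 and 16.2 CPM, and Phgdh, the first enzyme of serine synthesis, rose from 11.2 to 29.7 CPM. Herpud1, a membrane protein of endoplasmic reticulum stress, rose from 0.720 to 6.64 CPM. In the p53 list 1 of 28 was lower (3.57%) and 3 were higher (10.7%, near the share of all genes). The lower one was the pro-apoptotic gene Pmaip1 (46.5, 44.6, 47.3 and 63.6 CPM in IVF and 3.39, 5.66, 1.74 and 0 CPM in SCNT embryos). The higher ones included the DNA damage sensor Xpc (2.36 to 10.1 CPM). At an unadjusted p under 0.05 by edgeR's test, 3 genes of the p53 list were lower and 12 higher. Its median log2 fold change was 0.51. The summed level of the list was higher in SCNT libraries (1919 to 2298 CPM) than in IVF libraries (1638 to 1774 CPM). Of 20 immediate early genes, 6 were higher (30%) and 3 lower (15%), at a median log2 fold change of 0.66. Fosl2 and Jund, subunits of the AP-1 factor, rose from 2.30 to 9.65 CPM and from 5.78 to 16.2 CPM. The antiproliferative gene Btg1 fell from 268 to 109 CPM and the ERK phosphatase gene Dusp6 from 17.7 to 7.73 CPM. The summed level of the list was lower in SCNT libraries (227 to 322 CPM) than in IVF libraries (352 to 437 CPM), opposite to its median. The SCNT mean of this sum was 66.2% of the IVF mean, against 83.1% for all genes tested. Among 24 interferon response genes, 5 were lower (20.8%) and 3 higher (12.5%), at a median log2 fold change of −0.51. Opposite to this median, their summed level was higher in SCNT libraries (371 to 463 CPM) than in IVF libraries (298 to 339 CPM). Ddx58, the viral RNA sensor RIG-I, rose from 10.4 to 74.1 CPM, and the MHC class I gene H2-D1 fell from 11.7 to 2.33 CPM.

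Transporter, cytoskeleton and signalling genes followed. Solute carriers had 53 higher (17.2%) and 23 lower (7.47%) of 308, with 33 and 7 called in both types. The orphan transporter Slc6a16, the glutamate transporter Slc17a6 and the fructose transporter Slc2a5 rose to 2.58 ± 0.629, 3.86 ± 1.17 and 4.20 ± 1.38 CPM, from 0.0336 ± 0.0389, 0.122 ± 0.244 and 0.210 ± 0.261 CPM. Slc25a31, the ADP/ATP carrier of germ cells, fell from 49.3 to 7.78 CPM. Actin cytoskeleton genes had 6 higher (16.2% against 9.63% of all genes) and 0 lower of 37, and all 6 were called in both types. The summed level of the list was 2896 to 3117 CPM in IVF and 2195 to 2785 CPM in SCNT libraries. The SCNT mean of this sum was 83.8% of the IVF mean, near the 83.1% for all genes tested. Ezr, the membrane linker ezrin, was read at 8.99, 7.33, 9.27 and 5.37 CPM in IVF, 19.8 and 19.7 CPM in the cytochalasin B and 30.6 and 17.04 CPM in the latrunculin A controls, and Tpm4, a tropomyosin, at 8.99, 6.71, 8.04 and 5.79 CPM in IVF embryos, 21.4 and 13.3 CPM with cytochalasin B and 16.0 and 26.2 CPM with latrunculin A. Both SCNT groups had been exposed to an inhibitor of actin polymerization and IVF embryos had not, so this exposure and SCNT itself cannot be told apart. In the TGF-beta and BMP list 11 of 41 were higher (26.8%) and 5 lower (3 without cytochalasin B control replicate 1 or latrunculin A control replicate 2). The summed level of this list was lower in SCNT libraries (1098 to 1244 CPM) than in IVF libraries (1324 to 1645 CPM). The SCNT mean of this sum was 78.5% of the IVF mean, against 83.1% for all genes tested. The ligand Bmp7 rose from 0.303 to 3.50 CPM and the receptor Acvr2b from 3.01 to 22.0 CPM, the ligand Bmp5 fell from 124 to 41.4 CPM, and of the target genes Id3 and Id2 rose (3.40 to 16.4 CPM and 32.6 to 75.8 CPM) while Id1 fell (14.5 to 4.49 CPM). Id2 was not called without cytochalasin B control replicate 2 (log2 fold change 0.93) or without latrunculin A control replicate 1 (0.41). MAP kinase cascade genes had 8 higher (19%) and 2 lower (4.76%) of 42, with Map4k4 rising from 9.29 to 31.7 CPM and Map4k5 falling from 381 to 147 CPM.

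**Figure D4:**
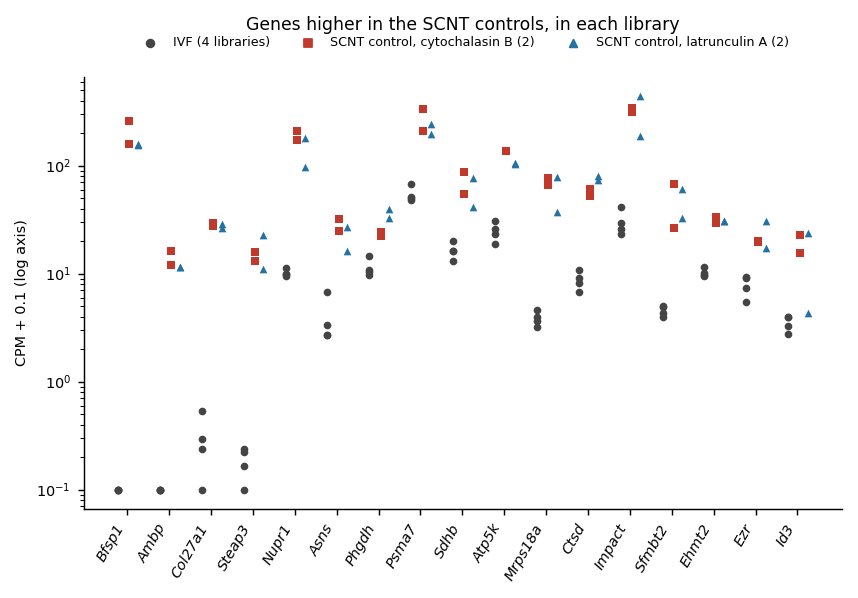
Each point is the level of a gene in 1 library, as CPM + 0.1 on a log axis; dark circles are IVF libraries, red squares cytochalasin B controls and blue triangles latrunculin A controls. All SCNT libraries lie above all IVF libraries for these genes, chosen from those named as higher in the text, and Bfsp1 and Ambp sit at the floor of 0 reads in the 4 IVF libraries.

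Of 53 DNA replication genes, 8 were higher (15.1% against 9.63% of all genes) and 2 lower (3.77% against 9.21%). Pold1 and Pold2, the catalytic and a small subunit of DNA polymerase delta, rose from 0.570 to 5.98 CPM and from 3.95 to 12.6 CPM, and the ligase gene Lig1 from 12.5 to 37.2 CPM. Orc5, of the origin recognition complex, fell from 318 to 87.8 CPM.

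Genes that write, erase or read chromatin marks form short lists, set beside 9.21% lower and 9.63% higher of all genes tested. Of 19 H3K9 methyltransferases and partners, 5.26% were lower and 5.26% higher. The shares were 0% and 18.2% of 11 H3K9 demethylases, and 7.69% and 3.85% of 26 Polycomb genes. Each of these shares rests on at most 2 genes. Of 18 DNA methylation and demethylation genes, edgeR called 0, with 6 lower and 5 higher at an unadjusted p under 0.05, and DESeq2 called 0 lower and 0 higher. Ehmt2, which encodes the H3K9 methyltransferase G9a, was read at 10.1, 9.32, 9.66 and 11.4 CPM in IVF embryos, 29.4 and 33.6 CPM in the cytochalasin B controls and 30.8 and 30.4 CPM in the latrunculin A controls, so that every SCNT library was above every IVF library (log2 fold change 1.62 ± 0.18, adjusted p = 1.33e-07). Its partner Ehmt1 (GLP) measured 51.1 ± 7.64 CPM in IVF and 79.0 ± 17.8 CPM in SCNT embryos and did not reach the fold threshold (log2 fold change 0.63 ± 0.17, adjusted p = 0.0051). Suv39h2 and Setdb1, which place trimethylation, had log2 fold changes of 0.40 ± 0.19 and −0.54 ± 0.16 and were not called, whereas Setdb2, related to Setdb1, fell from 190.1 to 64.7 CPM. Of 11 H3K9 demethylases, Kdm4b (3.20 to 7.39 CPM) and Phf2 (1.48 to 3.61 CPM) were higher and 0 were lower, of which Phf2 was not called in both types and lost its call when any 1 of 5 libraries was left out (adjusted p between 0.083 and 0.12), and Kdm3a and Kdm4d, the demethylases injected elsewhere in the study, had log2 fold changes of −0.02 ± 0.16 and 0.08 ± 0.37. Polycomb genes included Cbx7 (10.7 to 2.22 CPM) and Mtf2 (1092 to 494 CPM) as lower and Phc3 (2.19 to 11.9 CPM) as higher, of 26 tested.

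Imprinted genes, which are read from 1 parental copy, changed in both directions. Of 41 tested, 5 were lower (12.2% against 9.21% of all genes), 3 of them in both types. The higher ones numbered 8 (19.5% against 9.63%), 5 of them in both types. Phlda2 and Cdkn1c, maternally expressed restrainers of placental and embryonic growth, were lower, Phlda2 at 104, 82.4, 76.6 and 109.8 CPM in IVF and 1.26, 4.86, 1.68 and 4.84 CPM in SCNT embryos (log2 fold change −4.89 ± 0.48, adjusted p = 1.48e-08) and Cdkn1c from 17.03 to 1.86 CPM. Impact, a paternally expressed regulator of translation, was read at 25.9, 29.1, 41.0 and 23.01 CPM and 340.3, 316, 437 and 189 CPM (log2 fold change 3.43 ± 0.23), and Rian and Sgce rose from 0.792 to 6.71 CPM and from 2.34 to 9.07 CPM. Of the 6 genes tested whose maternal copy is silenced by H3K27 trimethylation in normal embryos, Sfmbt2 and Slc38a4 were higher in both types and none was lower. Sfmbt2 was read at 4.96, 4.23, 3.89 and 4.81 CPM in IVF, 67.5 and 26.2 CPM in the cytochalasin B and 60.3 and 33.0 CPM in the latrunculin A controls (log2 fold change 3.39 ± 0.36), and Slc38a4 rose from 3.41 to 12.6 CPM. The counts do not separate the parental copies.

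Windows with most lower genes held gene families. Of 1235 windows of 1 Mb with at least 8 genes tested, 14 held 5 or more genes lower in both types and 37 held 5 or more higher ones. On the mm10 assembly, the window at chr7:15000001-16000000 held 8 lower genes of 21 tested, including Obox1, Obox3, Obox5, Obox6 and Obox pseudogenes, and the window at chr7:11000001-12000000 held 8 of 27, among them Zscan4c, Zscan4d, Zscan4f and 3 Zscan4 pseudogenes. On chromosome 4, 2 windows held 7 each, at chr4:147000001-148000000 with the zinc finger genes Zfp534, Zfp984 and Zfp988 among 29 genes, and at chr4:73000001-74000000 with predicted genes and Rasef among 12. Windows with 6 lay at chr4:143000001-144000000, which holds Pramef6, chr12:88000001-89000000, chr13:65000001-66000000, with Nlrp4f and Zfp369, and chr13:66000001-67000000. The windows with most higher genes were gene-dense and held 9 each, at chr10:80000001-81000000 among 54 genes and at chr15:76000001-77000000 among 55, with called genes such as Lmnb2, Gadd45b and Uqcr11 in the first and Maf1 and Dgat1 in the second. Across zinc finger genes named Zfp, 49 were lower (13%) and 50 higher (13.3%) of 376, beside 9.21% and 9.63% of all genes tested. In the series Zfp900 to Zfp999 the count was 12 lower (21.1%) and 5 higher (8.77%) of 57, and Zfp936 was read at 664, 604, 659 and 609 CPM in IVF and 134, 181, 156 and 48.2 CPM in SCNT embryos. Zinc finger and Zscan4 copies resemble each other, and reads that match several copies were not counted.

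**Figure D5:**
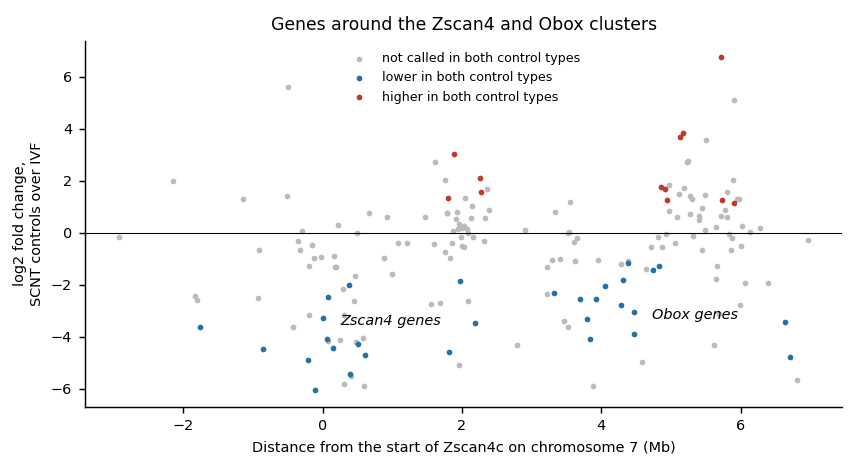
Each point is a gene tested on chromosome 7, placed by the distance of its start from that of Zscan4c in Mb, with the fitted log2 fold change of the pooled SCNT controls over IVF embryos on the y axis. Blue points, lower in both control types, gather at the Zscan4 genes and at the Obox genes, and genes between the 2 clusters lie on both sides of 0.

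Direct comparison of the 2 control types called 3 genes (0.0116%), and 2014 genes had an unadjusted p under 0.05. Sva, a seminal vesicle secretory gene, was read at 25.0, 28.8, 35.8 and 21.3 CPM in IVF embryos and 5.42 and 4.15 CPM in the cytochalasin B controls but at 0 and 0.465 CPM in the latrunculin A controls (log2 difference of latrunculin A from cytochalasin B −4.65 ± 0.70, adjusted p = 0.0061). The predicted gene Gm9519 measured 11.6 and 9.33 CPM and 1.63 and 1.58 CPM in the 2 types (−2.69 ± 0.37, adjusted p = 0.0025). Cblb, an E3 ubiquitin ligase, was higher with latrunculin A, at 4.23 and 4.56 CPM against 0.194 and 0.0797 CPM (4.95 ± 0.85, adjusted p = 0.028), and 2.48, 2.42, 3.24 and 3.07 CPM in IVF embryos. DESeq2 called 37 lower and 33 higher genes with latrunculin A, so the small number depends on the test, and with 2 libraries a type it does not show that the types are alike. The 2 latrunculin A libraries also differed from each other, for example 10.9 and 5.12 CPM for Zscan4d and 796 and 279 CPM for Tcl1, and without the first of them 142 lower and 67 higher genes were called between the types.

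The composition of the libraries differed between IVF and SCNT embryos. The 100 most abundant autosomal genes of a library held 19.7% ± 0.282 (SD, n = 4) of its autosomal counts in IVF embryos and 16.4% ± 0.938 (n = 4) in SCNT controls (exact two-sided permutation test, p = 0.0286, the smallest that 4 against 4 allows, adjusted p = 0.0476 over 5 measures). Long noncoding genes held 2.32% ± 0.112 and 2.61% ± 0.116, and protein-coding genes 95.5% ± 0.118 and 95.1% ± 0.105, with the same p and adjusted p for each by the exact permutation test. Pseudogenes held 1.84% ± 0.0548 and 1.65% ± 0.144 (exact permutation p = 0.0857, adjusted p = 0.107). Expected at equal depth were 22877 ± 308 genes with at least 1 read in IVF and 23233 ± 729.7 in SCNT libraries (exact permutation p = 0.4), and with at least 5 reads the SCNT libraries had 1132 more genes than IVF libraries on average (adjusted p = 0.0357 by the exact permutation test). The protein-coding genes lower in both types had a median exon length of 2966 bases, those higher 3307 bases and all tested 3442 bases. A comparison of promoter base composition and motifs was void, because a RefSeq promoter sequence matched only 77.3% of the protein-coding genes tested.

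Other lists follow with their counts, beside 9.21% lower and 9.63% higher of all genes tested. Among 87 spliceosome genes 5 were lower (5.75%) and 8 higher (9.2%), and among 51 translation initiation factors 4 (7.84%) and 4 (7.84%). Among 41 Wnt pathway genes the counts were 4 (9.76%) and 5 (12.2%), and among 28 replication-dependent histone genes 1 (3.57%) and 2 (7.14%). Single libraries moved these counts by over 1.5 times, for example translation factors called lower to 8 without latrunculin A control replicate 1 and to 2 without latrunculin A control replicate 2 or cytochalasin B control replicate 1. Of 22 cholesterol synthesis genes, 2 were lower (9.09%), the synthase genes Hmgcs1 (445 to 169.8 CPM) and Fdft1 (343 to 128 CPM), and 3 were higher (13.6%). Of 33 cumulus and granulosa genes, the type of the donor cell, 5 were higher (15.2% against 9.63% of all genes) and 1 was lower, and 2 or 3 were higher when any 1 library other than cytochalasin B control replicate 2 and latrunculin A control replicate 1 was left out. Plaur, the urokinase receptor, rose from 0.343 to 3.75 CPM, and Cyp19a1, the aromatase of granulosa cells, fell from 4.13 to 0.763 CPM, while the receptor gene Fshr had 9 reads in all 8 libraries together. Among 289 olfactory and vomeronasal receptor genes, 47 were lower (16.3% against 9.21% of all genes) and 12 higher. Without cytochalasin B control replicate 1 they were 31 lower and 5 higher, and without IVF replicate 2 or 4 the higher ones were 6.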

How the data were processed

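RNA-seq (SMART-Seq HT, paired reads) was analysed for 8 of 25 libraries of pooled mouse two-cell embryos. Per the labels and the methods of the study, the authors used Trimmomatic for trimming, STAR for alignment to the mm10 genome, and counted uniquely mapped reads with featureCounts 1.6.2. The deposited table holds raw counts per gene. Rows that are not single genes, and sex chromosomes, were left out, since all SCNT donors were female. Groups follow the labels.

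Counts of all 25 libraries were fitted with edgeR 4.0.16 (quasi-likelihood, 11 group terms, TMM factors 0.936 to 1.16 in the 8 libraries, common dispersion 0.136, R 4.3.3). Tested were 25794 autosomal genes whose mean over these libraries reached 1 read. The pooled contrast is the mean of both control types minus IVF. A call needs a Benjamini-Hochberg adjusted p under 0.05 over all genes and a fold change over 2. Standard errors derive from the log2 fold change and F. Composition was compared by exact permutation of library values at 6124685 autosomal counts for detection. Counts divided by gene length gave TPM. Bounds for genes with 0 reads set each such library to 3 reads and, like all counting limits, cover counting error only. Whether libraries came from separate collections is not given in the sources used here, so p-values measure the spread between libraries, which may be technical.

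Named genes were the 15 lowest and 15 highest protein-coding genes called in both types, up to 4 called genes per list in its main direction and 2 in the other, genes the study names, and genes called between the types; some of them are not reported here. The comparison, its members and the lists were chosen with earlier results of these data known. Tested on simulated data for the pooled comparison (25749 genes), edgeR recovered 124 of 200 genes changed 4-fold (62%) with 6 other calls. For calls in both types it recovered 46 (23%). Alternatives were DESeq2 1.42.0, other scaling, filters and library sets, a replicate block, and each library left out.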

Additional observations from a re-analysis of the deposited data

Results flagged for a closer look

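In groups of 4 libraries, 1 library stood apart from the other 3 by Dixon's criterion in 35 of 404 groups tested, where chance alone is set to give about 1 in 20. The expected number of genes detected at equal depth was 22419 in IVF replicate 1, below the other IVF libraries, and 22148 in latrunculin A control replicate 2, below the other SCNT controls. Among summed levels of gene lists, 1 library stood apart in the IVF group for totipotency and pluripotency regulators in IVF replicate 3 (11189 CPM), cholesterol synthesis genes in IVF replicate 2 (1431 CPM), H3K9 demethylases in IVF replicate 2 (1101 CPM) and DNA methylation and demethylation genes in IVF replicate 3 (7658 CPM). In the SCNT group this held for ribosomal protein genes in cytochalasin B control replicate 2 (16991 CPM), solute carrier genes in latrunculin A control replicate 2 (8351 CPM), Zfp zinc finger genes in latrunculin A control replicate 2 (11843 CPM), canonical imprinted genes in latrunculin A control replicate 1 (1065 CPM), subcortical maternal complex and Nlrp genes in latrunculin A control replicate 2 (4759.9 CPM) and TGF-beta and BMP pathway genes in latrunculin A control replicate 1 (1244 CPM).

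Among single genes, 1 IVF library stood apart for Itga7 in IVF replicate 3 (0.0648 CPM), Pxdn in IVF replicate 1 (0.155 CPM), Adssl1 in IVF replicate 1 (0 CPM), Pmaip1 in IVF replicate 4 (63.6 CPM), Psma7 in IVF replicate 3 (68.1 CPM), Asns in IVF replicate 1 (6.67 CPM), Fam13a in IVF replicate 3 (0.0648 CPM), Dppa3 in IVF replicate 3 (6806 CPM), Slc17a6 in IVF replicate 4 (0.488 CPM), Relt in IVF replicate 3 (0.130 CPM), Mrps31 in IVF replicate 2 (2.18 CPM), Herpud1 in IVF replicate 4 (1.74 CPM) and Gsta2 in IVF replicate 2 (0.0622 CPM). Many of these levels rest on a few reads. Among the SCNT controls this held for Tmem92 in latrunculin A control replicate 2 (22.3 CPM), Krt28 in cytochalasin B control replicate 2 (0.0797 CPM), Krtap4-13 in cytochalasin B control replicate 1 (0.0968 CPM), Sox11 in cytochalasin B control replicate 1 (0.581 CPM), Bfsp1 in cytochalasin B control replicate 1 (257 CPM), Ambp in cytochalasin B control replicate 1 (16.2 CPM), Cox7b2 in cytochalasin B control replicate 2 (0.478 CPM), Sgce in cytochalasin B control replicate 2 (14.9 CPM), Tuba3b in cytochalasin B control replicate 1 (0.387 CPM) and Chrna5 in cytochalasin B control replicate 1 (0.0968 CPM). Tmem92 was thus nearest to its IVF level in 1 latrunculin A library, and Bfsp1 and Ambp were highest in 1 cytochalasin B library.

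Between the control types, 3 genes differed by edgeR's quasi-likelihood test. The log2 difference of latrunculin A from cytochalasin B controls was 4.95 for Cblb, −4.65 for Sva and −2.69 for Gm9519.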

How the results depend on the processing

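The pooled counts stayed within 1.5 times the reported ones under every alternative run, at 1736 to 2522 lower and 1800 to 2710 higher genes, and with each library left out at 2017 to 2502 and 2063 to 2373. Counts called in both types with a library left out were 775 to 1048 lower and 1061 to 1345 higher. DESeq2 shared 2131 lower and 2378 higher pooled calls. Fitting the 4 controls as 1 group moved the median log2 fold change of all genes by 0.10 to 0.12, and leaving out latrunculin A control replicate 1 by −0.10. Genes called between the control types depended most on the setting. They numbered 37 lower and 33 higher with DESeq2, 53 and 52 with all genes kept whatever their counts, 5 and 2 with only the 8 libraries, and 2 to 142 and 0 to 67 with a library left out, the highest without latrunculin A control replicate 1. With 2 Mb windows, 31 held 5 or more lower and 61 held 5 or more higher genes. With at least 5 reads the difference in genes detected was 1132. With a library left out, differences (SCNT minus IVF) ranged from −3.67 to −2.96 percentage points for the 100 most abundant genes, −0.442 to −0.346 for protein-coding genes, 0.236 to 0.323 for long noncoding genes and 190.1 to 718 genes for detection, and 3 against 4 libraries cannot give a p under 0.0571. No called gene among those named changed sign. Of those not called, Nanog, Kdm4d, Kdm3a and Zfp352 did, with log2 fold changes of −0.06 to 0.93, −0.49 to 0.43, −0.32 to 0.19 and −0.04 to 0.22 over the alternatives. Calls were lost under at least 1 alternative for Cetn1 (DESeq2), Dusp6 (replicate block, log2 fold change −0.76), Kpna2, Id2, Phf2, Cblb, Psmb8, Kdm4b, Oog3 and Prc1. Without latrunculin A control replicate 2 the log2 fold change was 0.98 for Kdm4b, −0.99 for Oog3 and −0.96 for Prc1, and without cytochalasin B control replicate 2 it was −1.58 for Cblb. The cause of these changes was not tested.

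Replicate numbers did not pair the libraries, since deviations of same-numbered libraries correlated between −0.061 and 0.025. With the replicate number as a block, 1736 lower and 1800 higher genes were called in the pooled comparison, 822 and 1062 in both types, and 2 lower and 0 higher between the types.

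Limits: at 2 libraries per control type, 23% of simulated 4-fold changes were recovered in both types, so a gene not called may still differ.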

Other observations

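Families and genes in this paragraph were chosen after their values were seen and are given as values only. Of 117 developmental transcription factor genes of families such as Hox, Sox, Pax, Irx, Tbx, Fox, Lhx, Dlx, Nkx, Gata, Neurod, Neurog, Otx and Pou, 33 were lower (28.2%) and 6 higher (5.13%) in the pooled SCNT controls, 21 and 2 in both types. The shares of all genes tested were 9.21% lower and 9.63% higher. Of 21 glutathione S-transferase genes, 1 was lower (4.76%) and 5 were higher (23.8%), and their summed level was 162 to 201 CPM in IVF libraries and 269 to 522 CPM in SCNT libraries. Gstm1, one of them, was read at 4.03, 3.29, 1.36 and 3.76 CPM in IVF and 239, 236, 279.6 and 110.0 CPM in SCNT embryos. Ripk3, the kinase of necroptosis, measured 1.55, 0.808, 0.713 and 0.976 CPM and 63.5, 45.7, 68.2 and 54.4 CPM. Malat1, a nuclear noncoding RNA, measured 52.4, 78.6, 61.0 and 69.1 CPM and 499, 386, 339 and 539 CPM. In the other direction, Spin1, a reader of histone methylation, fell from 7398 to 2766 CPM and Mdm4, an inhibitor of p53, from 7181 to 3429 CPM. Of 28 H2 genes of the major histocompatibility complex, 14 were lower (50%) and 2 higher (7.14%).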
